A study of Bos taurus with 17 samples.

Results

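KIT, the receptor tyrosine kinase, and its ligand KITLG (KIT ligand, also called stem cell factor) were followed in bovine cumulus cells, the somatic cells that surround the oocyte, over 3 stages of oocyte competence. Their probes were chosen among all non-control probes by the gene name KIT or KITLG, or by a description that names either protein. This gave 2 of the 13732 named genes, with 2 probes of 21475, A_73_113522 for KIT and A_73_110108 for KITLG, each spotted 2 times on every array. No other probe with the symbol KIT or KITLG was found.

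Cumulus cells were profiled on 17 Agilent 1-colour arrays, with 1 array for each animal. The 6 NC1 samples came from prepubertal calves of 3 to 6 months. Their oocytes were immature, arrested in prophase I and classed as incompetent or poorly competent for development. The 6 C1 samples came from adult cows of various ages, and their oocytes were immature as well but competent. Both kinds of complex were aspirated after slaughter from ovaries that had received no hormone in the study, and only complexes with several layers of compact cumulus were kept. In calves the follicles measured 3 to 6 mm, and the same procedure was used for cows. The 5 C2 samples came from Holstein cows of 3 to 5 years that were not lactating. These cows were synchronized with a progestagen ear implant, superovulated with a porcine FSH/LH preparation and given prostaglandin, and their complexes were taken by ovum pick-up from follicles over 8 mm, 60 h after the prostaglandin. Only complexes with an expanded cumulus and a mature metaphase II oocyte were kept. Between NC1 and C1 the age of the animal thus changed with the competence of the oocyte. Between C1 and C2 the hormone treatment, the follicle size, the way of collection and the expansion of the cumulus all changed together with meiosis, and their parts cannot be told apart.

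KITLG is made by the granulosa lineage, as a membrane-bound form and as a form that is cut from the membrane by proteases. KIT is carried in the ovary by oocytes and theca cells, and elsewhere by mast cells and blood progenitors. On binding the ligand, KIT dimers signal through PI3K and AKT, through RAS and the MAP kinases, and through SRC-family kinases, PLCG and STAT proteins, a signalling known in the ovary for follicle activation, oocyte growth and theca recruitment.

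The probe for KIT is a 60-base oligonucleotide, and its first 30 bases are given because they bear on what the probe can tell about the receptor:
KIT probe A_73_113522, bases 1 to 30: aaagtggttgtTAAttgTAGatgtcTAGgt
The capitals mark 3 stop triplets. Over the 60 bases, read as deposited, there was 1 stop triplet in frame 1, 1 in frame 2 and 2 in frame 3, so that no reading frame was open over its whole length. The array's description of this probe names a cattle transcript similar to human KIT. KITLG was named through its accession in RefSeq, and the sequence of its probe was not used here. Both probes read mRNA, so the amounts of membrane-bound and soluble protein were not measured. Where the KITLG probe lies in its mRNA was not determined.

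The expression of each probe is given below as the log2 scaled signal, which is the log2 of the background-corrected signal minus the median of all probes on the same array. A value of 0 is thus the median of the array, and 1 unit is a 2-fold difference. On each array 66.2% to 82.8% of the probes were well above background, and no spot was saturated. The arrays lay on 6 slides, each with 1 NC1 and 1 C1 array and 5 of them with 1 C2 array, and were scanned on 2 days. The C2 arrays did not scatter evenly. Replicates 1 and 5 lay close to each other, with an SD of 0.44 for the log2 difference over probes, as did replicates 3 and 4 with 0.51, while all other C2 pairs were 1.05 to 1.27 apart. The results for KIT and KITLG are therefore also given with the close arrays averaged. The samples of a stage came from different animals. The p-values set a difference against the spread between these few samples, whose number limits the precision. Unless averaging is stated, they count the close C2 arrays as separate samples.

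The ligand mRNA was far higher in expanded cumulus than in compact cumulus. KITLG had log2 scaled signals of 1.13, 0.83, 0.86, 0.00 and 1.85 on C2 arrays 1 to 5, with a mean of 0.94 ± 0.66 (SD, n = 5). On the C1 arrays the signal ran from -5.16 to -3.43 with a median of -3.98 and a mean of -4.09 ± 0.65 (SD, n = 6). On the NC1 arrays it ran from -4.58 to -2.24 with a median of -3.65 and a mean of -3.60 ± 0.82 (SD, n = 6). Every C2 array lay above every C1 and NC1 array, while the NC1 and C1 ranges overlapped over most of their length. On the linear scale, where 1 is the array median, the mean was 2.08 ± 0.958 at C2, against 0.0635 ± 0.0247 at C1 and 0.0954 ± 0.0612 at NC1 (SD).

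**Figure D1:**
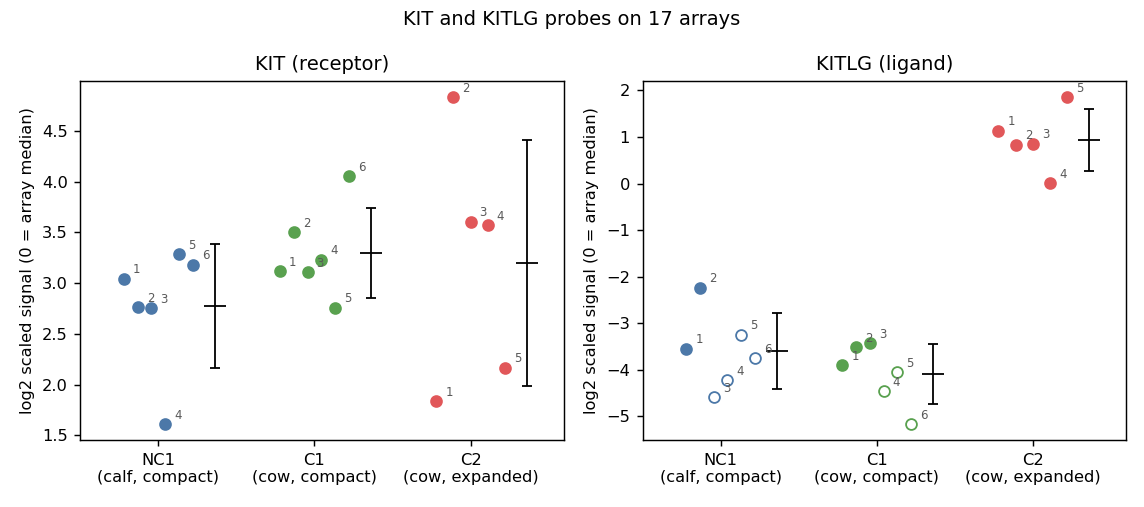
Log2 scaled signal of KIT (left) and KITLG (right) on each array of the 3 stages, with the replicate number beside each point and the mean ± SD to its right. Open circles are arrays on which the probe was not well above background. The 5 C2 arrays stand clear of the 12 compact arrays for KITLG, and for KIT they spread from 1.84 to 4.83 across both other stages.

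The rise of KITLG was larger than the spread between arrays. C2 exceeded C1 by 5.02 on the log2 scale (SE 0.41, 95% interval 4.17 to 5.87, limma adjusted p = 4.12e-08). Against NC1 the difference was 4.53 (SE 0.41, 95% interval 3.68 to 5.38, adjusted p = 1.44e-07). As KITLG was not valid by the rule of presence on 80% of the arrays of each stage, these p-values come from the fit over all 21475 probes. In that fit 11.2% of the probes rose and 9.97% fell from C1 to C2 past the adjusted threshold of 0.01, and 10.7% rose and 9.79% fell from NC1 to C2. The 2-sided exact permutation test gave p = 0.00433 for each comparison with C2, the smallest value that 5 arrays against 6 allow, and 0.0130 after adjustment over the 6 tests of KIT and KITLG. For comparison, 9.61% of all probes had every C2 array above every C1 array, and 8.11% had every C2 array above every NC1 array. Both comparisons share the C2 arrays and are not independent. In whole-cumulus RNA, fewer cells of a kind and less RNA in each cell cannot be told apart.

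KITLG was close to background in compact cumulus, so the size of the rise rests on small signals and no fold is given. By the scanner's own test its spots stood well above background in all 5 C2 samples, but in only 3 C1 samples and 2 NC1 samples. Before background subtraction the KITLG spots read 153 to 584 intensity units at C2, 32.2 to 45.4 at C1 and 38.8 to 66.6 at NC1. The negative control spots of the same arrays had 95th percentiles of 33.0 to 40.2, 27.1 to 38.8 and 34.7 to 62.9 units. The KITLG signal thus stood 4.64 to 15.1 times above the 95th percentile of the negative controls on C2 arrays, and 0.930 to 1.59 times that percentile on the compact arrays. With a background correction that holds low signals up (normexp with an offset of 50), the rise was 2.29 over C1 (adjusted p = 4.62e-07) and 1.89 over NC1 (adjusted p = 5.98e-06). The direction and the call were kept, and the size was less than in the main comparison.

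**Figure D2:**
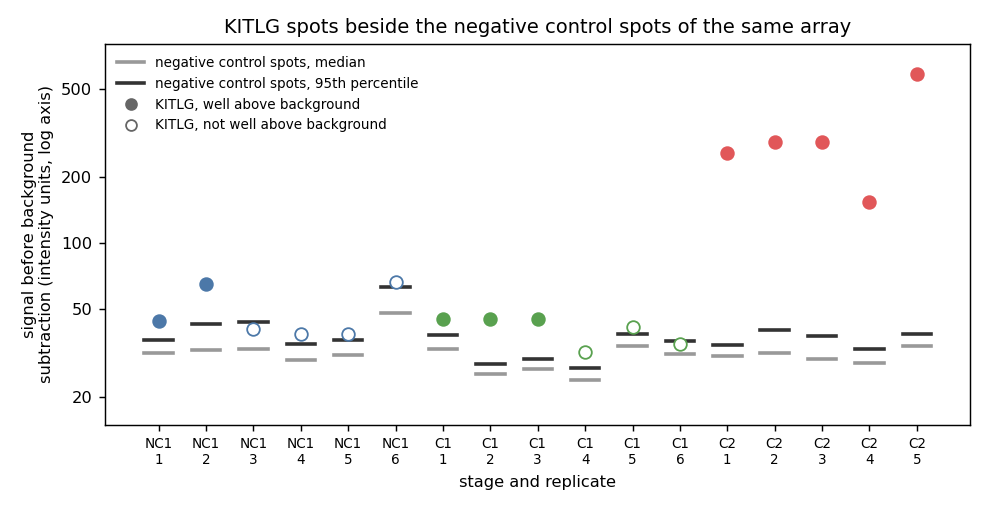
Mean signal of the KITLG spots before background subtraction, on a log axis in intensity units, for each array by stage and replicate, beside the median (grey bar) and the 95th percentile (black bar) of the negative control spots of the same array. The C2 arrays read 153 to 584 units, above the 95th percentile of their negative controls on 5 of 5 arrays and above the highest negative control spot on 4 of 5, while the compact arrays lie at 32.2 to 66.6 units, next to them.

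The detection of KITLG was set beside that of all probes. Counting KITLG itself, 142 of 21475 probes (0.661%) were present on all C2 arrays and on no more C1 and NC1 arrays than KITLG was. Of these, 28 rose over C1 by at least as much. The pattern was taken from KITLG's own values, so this share is a description and no test. Leaving out any array in turn left the KITLG rise at 4.79 to 5.26 over C1 and at 4.30 to 4.80 over NC1. With the close C2 arrays averaged it was 5.01 over C1 and 4.52 over NC1. Within a slide, C2 exceeded C1 by 3.43 to 6.30 in 5 of 5 slides and exceeded NC1 by 3.07 to 5.44 in 5 of 5 slides. On the 2 scan days C2 exceeded C1 by 5.64 and 4.23, and NC1 by 4.28 and 4.61.

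Between calves and adult cows no difference of KITLG was shown in compact cumulus. C1 minus NC1 was -0.49 (SE 0.39, 95% interval -1.30 to 0.32, adjusted p = 0.553), and the exact permutation p was 0.288, or 0.432 adjusted over the 6 tests. Over all probes 0.116% passed the threshold in this comparison. Most of these KITLG values came from arrays on which the probe was not well above background, which sets no order between the stages. The 2 scan days gave -1.36 and 0.38, and the difference was positive in 3 of 6 slides.

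The receptor mRNA was measured on every array and showed no common direction between the stages. KIT ran from 1.61 to 3.29 on the NC1 arrays, with a median of 2.90 and a mean of 2.77 ± 0.61 (SD, n = 6). On the C1 arrays it ran from 2.76 to 4.06, with a median of 3.17 and a mean of 3.29 ± 0.44 (SD, n = 6). C2 arrays 1 to 5 gave 1.84, 4.83, 3.61, 3.57 and 2.17, with a mean of 3.20 ± 1.21 (SD, n = 5). The ranges of all 3 stages overlapped, and in the order NC1, C2 and C1 of the means no neighbours differed beyond their spread. The KIT spots read 406 to 4522 units before background subtraction, and every array was above its highest negative control spot.

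C2 minus C1 was -0.09 for KIT (SE 0.44, 95% interval -1.01 to 0.82, adjusted p = 0.879), while 28.1% of the 13865 valid probes passed the threshold in either direction. C2 minus NC1 was 0.43 (SE 0.44, 95% interval -0.49 to 1.34, adjusted p = 0.464), with 28.1% of the valid probes past the threshold. C1 minus NC1 was 0.52 (SE 0.41, 95% interval -0.35 to 1.39, adjusted p = 0.748), with 0.0577% past it. The exact permutation p was 0.844, 0.485 and 0.121 in the same order, and 0.844, 0.582 and 0.242 after adjustment. The intervals leave room for changes of up to about 1 log2 unit either way between C1 and C2, so equal levels were not shown. The sign of C2 minus C1 turned to 0.06 without C1 replicate 6, to 0.25 without C2 replicate 1 and to 0.17 without C2 replicate 5, and it was -0.50 without C2 replicate 2. With the close C2 arrays averaged it was 0.18 (adjusted p = 0.810), and C2 minus NC1 was then 0.70 (adjusted p = 0.281).

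The receptor varied more than most genes within each stage, and at C2 along the pairs of arrays. The share of valid probes with a smaller SD than KIT was 89.8% at NC1, 77.2% at C1 and 90.6% at C2, where the SD of KIT was 1.21 and the median SD 0.50. KIT differed by 0.33 between replicates 1 and 5 and by 0.04 between replicates 3 and 4. The mean of replicates 3 and 4 was 1.59 above that of replicates 1 and 5, a 3.00-fold difference, and replicate 2 was another 1.24 higher. From the lowest to the highest C2 array the receptor signal spanned 7.97-fold. KITLG lay the other way round, with 1.13 and 1.85 in replicates 1 and 5 above 0.86 and 0.00 in replicates 3 and 4. Within a slide, C2 minus C1 of KIT ran from -2.22 to 2.07 and was positive in 3 of 5 slides, and the 2 scan days gave -0.37 and 0.31.

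The unequal change of ligand and receptor was tested on the difference between both log2 signals of an array, which does not depend on the scaling between arrays. KITLG rose by 5.12 more than KIT from C1 to C2 and by 4.10 more from NC1 to C2. In both comparisons no C2 array overlapped the compact arrays (exact permutation p = 0.00433, the smallest possible, or 0.00649 adjusted over the 3 comparisons). From NC1 to C1 the difference was -1.01 (exact permutation p = 0.0823), negative in 6 of 6 slides, but without NC1 replicate 3 it was -1.20 with an exact permutation p of 0.0303, and under normexp -1.14 with 0.0238. Under normexp the excess of the ligand was 2.44 from C1 to C2, and 1.30 from NC1 to C2 with an exact permutation p of 0.130.

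**Figure D3:**
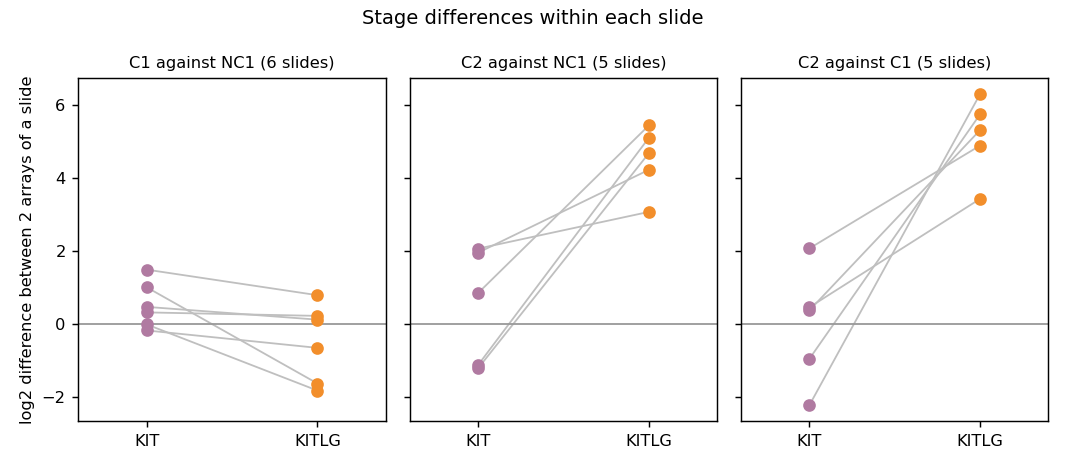
Difference of the log2 scaled signal between the 2 arrays of a slide that belong to the stages named above each panel, for KIT and KITLG. Each grey line joins both genes on 1 slide, and the horizontal line marks no difference. In the comparisons with C2, KITLG lies between 3.07 and 6.30 on all 5 slides, whereas KIT lies on both sides of 0.

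The genes known to act around the ligand and receptor were set out in 7 lists with 109 genes, of which 96 had a probe and 76 a valid one. The C2 to C1 comparison called 23 of the 76 as higher and 6 as lower, or 38.2%, beside 28.1% of all valid probes (15.3% higher and 12.8% lower). Against NC1, 19 were higher and 8 lower, or 35.5%, beside 28.1% (15.5% higher and 12.5% lower). The median change of the 76 genes was 0.31 over C1 and 0.25 over NC1, and that of all valid probes was 0.02 and 0.11. Between NC1 and C1 limma called 0 of the 76 (9 had an unadjusted p under 0.05, and the unmoderated test called 0), beside 8 valid probes in all. Scaling the arrays to their 75th percentile in place of the median lowered every change from C1 to C2 by 0.13 and from NC1 to C2 by 0.15. From C1 to C2 it called 2114 valid probes as higher and 2514 as lower, and quantile normalization 2212 and 2464, against 2117 and 1775 with the median. Under both alternatives 23 of the 76 genes were higher and 9 lower. Under normexp 18 of the 76 were higher and 5 lower, with a median change of 0.21. Of the 20 genes on the array without a valid probe, the fit over all probes called 3 as higher and 1 as lower from C1 to C2, and 3 and 2 from NC1 to C2. In that fit 11.2% of all probes were higher and 9.97% lower from C1 to C2, and 10.7% and 9.79% from NC1 to C2.

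**Figure D4:**
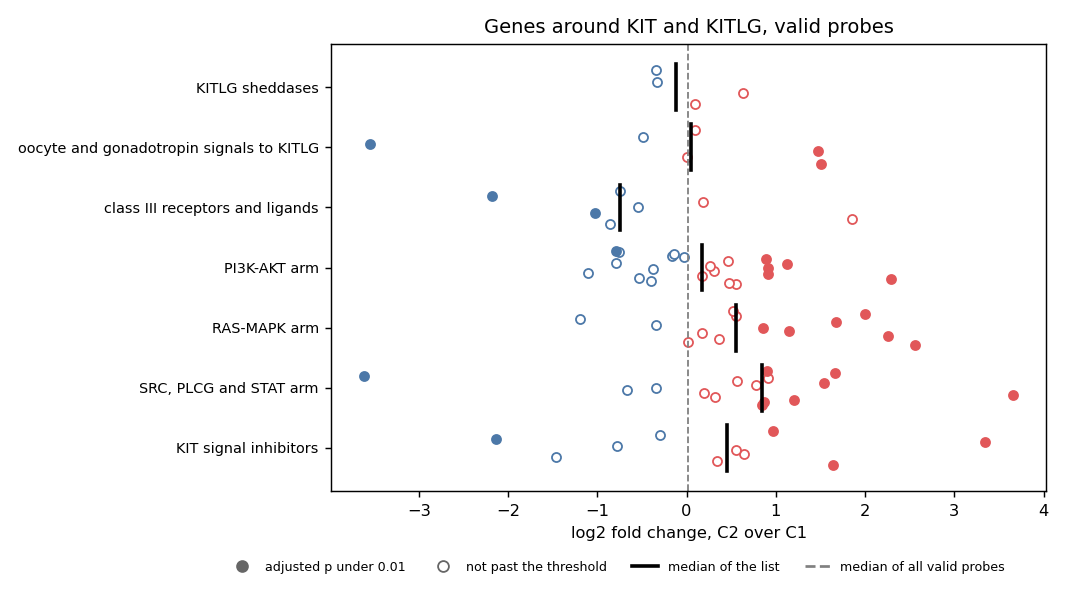
Log2 fold change of C2 over C1 for each gene with a valid probe in the 7 lists around KIT and KITLG. Filled circles passed an adjusted p of 0.01 (red higher, blue lower in C2), black bars are the medians of the lists and the dashed line is the median of all 13865 valid probes (0.02). The RAS-MAPK and the SRC, PLCG and STAT lists have the highest medians, 0.56 and 0.85, and the list of related receptors and ligands the lowest, -0.74.

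Among the signals that act on KITLG, 6 of 9 genes on the array were valid. From C1 to C2, 2 rose and 1 fell, beside 15.3% and 12.8% of all valid probes, and the list had a median of 0.05. FSHR, the receptor for follicle-stimulating hormone, fell from 5.60 ± 0.21 at C1 to 2.05 ± 0.47 at C2 (SD), a change of -3.55 (SE 0.23, adjusted p = 2.31e-09). BMPR2, the type II receptor used by the oocyte factors GDF9 and BMP15, rose by 1.50 (SE 0.22, adjusted p = 2.32e-05). FGFR2, a receptor for fibroblast growth factors, rose by 1.48 (SE 0.25, adjusted p = 0.000133). The ligand GDF9 itself differed by -0.49 from C1 to C2 (adjusted p = 0.482) and fell by 3.30 from NC1 to C2 (adjusted p = 6.64e-05). GDF9 is also counted among the oocyte markers below.

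Of the proteases that can release KITLG from the membrane, 4 of 6 on the array were valid. None of these passed the threshold from C1 to C2 (median -0.12), beside 28.1% of all valid probes. In limma 1 of the 4 had an unadjusted p under 0.05, namely ADAM17 at 0.63 (adjusted p = 0.0326), and the unmoderated test called 0 as well. Against NC1 it rose by 0.79 (adjusted p = 0.00919), a call that the unmoderated test did not make. ADAM9 had no valid probe, since 4 of 6 NC1 arrays showed it above background. In the fit over all probes ADAM9 rose by 1.57 from C1 (adjusted p = 0.00100) and by 1.52 from NC1 to C2 (adjusted p = 0.00137).

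In the RAS-MAPK arm, 6 of 13 valid genes rose and none fell from C1 to C2, beside 15.3% and 12.8% of all valid probes. The list had a median of 0.56. ARAF, a RAF-family kinase, rose from 4.06 ± 0.21 to 6.62 ± 0.48, by 2.56 (SE 0.23, adjusted p = 9.62e-08). MAP2K1, the MAP kinase kinase MEK1, rose by 2.26 (SE 0.25, adjusted p = 1.33e-06). Also higher were NRAS, a RAS protein, by 1.68, RPS6KA3, a ribosomal S6 kinase, by 2.00 and MAPK3, a MAP kinase, by 0.86. None of the 13 fell in the unmoderated test either, and in limma 1 was lower at an unadjusted p under 0.05. The filter on presence left out 4 genes of this arm, and 1 of them, well above background on all compact arrays but on 1 of 5 at C2, fell by 1.48 in the fit over all probes (adjusted p = 6.01e-05). In that fit 9.97% of all probes fell. HRAS did not pass, at 0.01.

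The SRC, PLCG and STAT arm had 7 of 15 valid genes higher and 1 lower in C2 than in C1, with a median of 0.85. The shares over all valid probes were 15.3% and 12.8%. LYN, an SRC-family kinase that binds KIT, rose by 3.66 (SE 0.53, adjusted p = 2.25e-05), from -1.72 ± 1.05 to 1.94 ± 1.06. From NC1, where it was at 0.06 ± 0.79, LYN rose by 1.88 (adjusted p = 0.00805), and the NC1 and C2 arrays overlapped. VAV1, an exchange factor for small GTPases, rose by 1.66 (SE 0.31, adjusted p = 0.000304). TEC, a cytoplasmic tyrosine kinase, fell by 3.61 (SE 0.26, adjusted p = 7.37e-09), from 3.22 ± 0.42 to -0.40 ± 0.53. SRC itself was at -0.35 (adjusted p = 0.285). LYN and VAV1 are also genes of blood cells. Of the 7 valid leukocyte markers, LYZ (1.89) and CD14 (1.22) rose as well and 5 were not called. The summed signals of the leukocyte list overlapped between C1 (19.0 to 35.4) and C2 (15.6 to 47.9). Both leukocyte markers without a valid probe also rose in the fit over all probes, CD3E by 2.77 (adjusted p = 0.000209) and ITGAM by 1.54 (adjusted p = 0.00761), beside 11.2% of all probes. The part of such cells in these values was not tested.

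In the PI3K-AKT arm 5 of 21 valid genes rose and 1 fell from C1 to C2, beside 15.3% and 12.8% of all valid probes. The median of the list was 0.17. EIF4EBP1, a repressor of translation that mTOR relieves, rose by 2.29 (SE 0.28, adjusted p = 3.33e-06). PIK3R1, the regulatory subunit of PI3K, rose by 1.13 (SE 0.20, adjusted p = 0.000206) on its brightest probe, but its 4 probes disagreed, with 0.23 (adjusted p = 0.621) and -0.57 (adjusted p = 0.0161) on the other valid ones and -0.78 (adjusted p = 0.224) on the one that was not valid. GRB10, an adaptor without a valid probe, rose by 2.19 in the fit over all probes (adjusted p = 0.000345). TSC2, a brake on mTOR, fell by 0.79 (SE 0.20, adjusted p = 0.00467), a call that was lost without any of C2 replicates 2, 3 and 4 or C1 replicates 4 and 6 (adjusted p up to 0.0132), with array weights (adjusted p = 0.0243), with the replicate block (adjusted p = 0.0170) and with the close C2 arrays averaged (adjusted p = 0.0121). The kinase AKT1 was at 0.56 (adjusted p = 0.0371).

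Inhibitors of KIT signals moved in both directions from C1 to C2, with 3 of 10 valid genes higher, 1 lower and a median of 0.45. Over all valid probes 15.3% were higher and 12.8% lower. SH2B3, the adaptor LNK that restrains KIT in blood cells, rose by 3.35 (SE 0.35, adjusted p = 6.13e-07), from -2.94 ± 0.41 to 0.41 ± 0.99. From NC1, where it was at -1.77 ± 0.37, SH2B3 rose by 2.18 (adjusted p = 7.71e-05). CBLB, a ubiquitin ligase, rose by 1.65 (SE 0.24, adjusted p = 2.43e-05). SOCS1, a suppressor of cytokine signals, fell by 2.14 (SE 0.30, adjusted p = 1.91e-05). SLA, an adaptor that was not valid, rose by 2.73 in the fit over all probes (adjusted p = 0.000170).

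Of the receptors related to KIT and their ligands, 7 of 9 were valid. None rose and 2 fell from C1 to C2, beside 15.3% and 12.8% of all valid probes, with a list median of -0.74. In limma 1 of the 7 was higher at an unadjusted p under 0.05, and the unmoderated test called 0 as higher. PDGFC, a ligand of the PDGF receptors, fell by 2.18 (SE 0.38, adjusted p = 0.000157). FLT3LG, the ligand of FLT3, fell by 1.03 (SE 0.23, adjusted p = 0.00165), but was only at -0.22 (adjusted p = 0.308) under normexp. The difference between KITLG and these ligands was not tested. In the order of genes in RefSeq, KIT lies between PDGFRA and KDR. PDGFRA was at -0.74 (adjusted p = 0.291), while KDR, the receptor of VEGF, rose by 3.58 (adjusted p = 1.68e-05). The neighbours of KITLG are TMTC3, at 0.31 (adjusted p = 0.565), and DUSP6, a phosphatase of ERK, at -0.98 (adjusted p = 0.0142).

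Likeness was measured by the SD over the 17 arrays of the difference between 2 log2 signals, among valid probes with a gene symbol. Probes with the detection pattern of KITLG, itself not valid, were thus left out. Among the 10340 probes searched, the genes that followed KITLG most closely were GGTA1 (0.73), MMP11 (0.81), GNG2 (0.82), ARHGAP24 (0.87) and CYP26B1 (0.87), where the median was 2.37. All 5 were higher in C2 than in C1, by 3.77 to 6.14. For KIT they were the gene listed as GENX-3414 (0.45), ZNF181 (0.49), MTA3 (0.49), CPPED1 (0.50) and RUNX1T1 (0.51), against a median of 0.92. None of these 5 was called from C1 to C2, as their changes ran from -0.35 to 0.64. The likeness is a description over arrays that share their libraries and scaling. The genes were picked on these same arrays, so their changes from C1 to C2 largely follow from the picking and are no separate result.

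The cell markers of the samples also moved between the stages. Of the granulosa and cumulus markers, 10 of 11 were well above background on all 17 arrays. From C1 to C2, 6 of the 10 valid ones fell, beside 12.8% of all valid probes. Among them were FOXL2 with a log2 change of -2.99, AMH with -2.14 and HSD17B1 with -6.46. The summed scaled signal of the list was 3036 to 7140.25 at NC1, 3491 to 4915 at C1 and 1172 to 4047 at C2. At C2 it was 1172 and 1178 in replicates 1 and 5, which had the lowest KIT signals, 3954 and 4047 in replicates 3 and 4, and 2657 in replicate 2, which had the highest. Of the expansion genes, 4 of 5 rose from C1 to C2 (TNFAIP6 by 6.63, PTX3 by 4.98, PTGS2 by 4.75 and HAS2 by 2.46) and VCAN was at -0.54, with sums of 162 to 328 at C1 and 782 to 1566 at C2. The C2 complexes had been kept for their expanded cumulus, so these genes check the label and are no finding.

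Cells that carry KIT elsewhere in the ovary were looked for by their markers. Oocyte markers had sums of 50.8 to 119.7 at NC1, 5.00 to 46.5 at C1 and 3.32 to 7.78 at C2. From NC1 to C2, 3 of 3 valid markers fell, GDF9 among them, beside 12.5% of all valid probes. In the fit over all probes 4 of the 5 others fell, beside 9.79% of all probes. The mean log2 scaled signals of KIT at NC1, C1 and C2 were 2.77, 3.29 and 3.20, with overlapping ranges. The part of oocyte RNA in them was not tested. Theca and stroma markers had sums of 174 to 309, 199 to 311 and 302 to 605. Of 9 valid markers, LUM was higher by 3.79, COL1A1 higher by 1.15 and TCF21 lower by 2.03 in C2 against C1. Over all valid probes 15.3% were higher and 12.8% lower in this comparison. The theca enzyme CYP17A1 was at -0.25 (adjusted p = 0.312). Mast cell markers summed to 1.41 to 4.22, 0.189 to 1.38 and 0.870 to 3.74, with 1 of 5 valid. No compact array showed CPA3 or CMA1 well above background, while 2 of 5 C2 arrays showed CPA3 and 1 of 5 showed CMA1. For MS4A2 such arrays numbered 0 at NC1, 2 at C1 and 1 at C2. HDC of this list, well above background on 5 of 5 C2 arrays, rose in the fit over all probes by 1.81 from C1 (adjusted p = 0.00303) and by 1.89 from NC1 to C2 (adjusted p = 0.00223). GATA2, the 1 valid marker of this list, was at 0.48 from C1 and at -2.31 from NC1 to C2, past the threshold in neither comparison. Leukocyte markers summed to 18.9 to 40.1, 19.0 to 35.4 and 15.6 to 47.9, and endothelial markers to at most 2.51, 1.36 and 11.2, where CDH5 was at background on every array and KDR, a gene of granulosa cells as well, was the 1 of 4 valid markers to rise. The part of these cells in the values of KIT and KITLG was not tested.

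**Figure D5:**
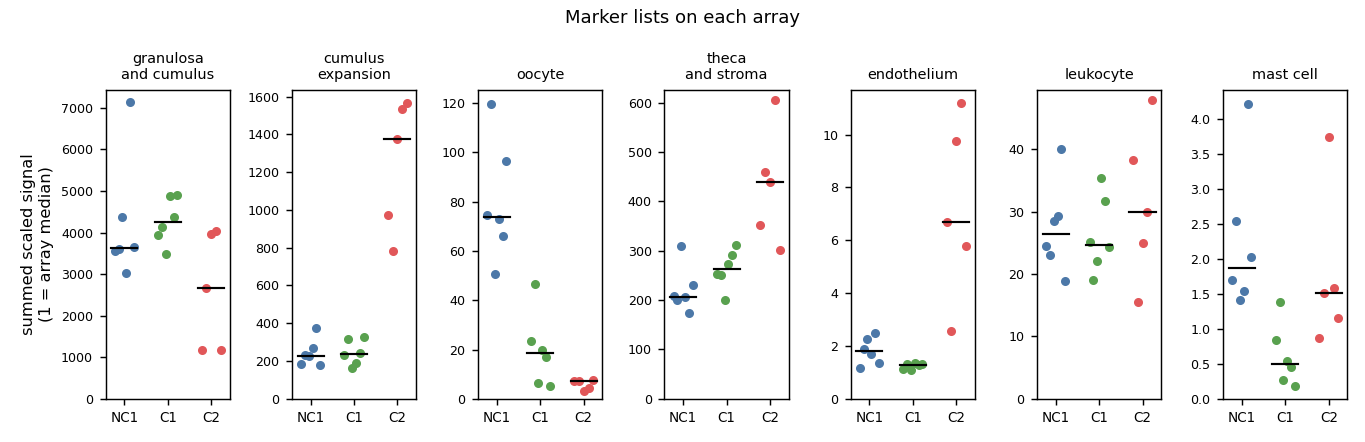
Summed scaled signal of each marker list on every array (points), by stage, with the median of the stage as a bar; each panel has its own linear axis from 0, where 1 is the array median. Oocyte markers fall from NC1 (50.8 to 119.7) to C2 (3.32 to 7.78), expansion markers rise at C2, and the granulosa and cumulus markers of C2 split between 1172 and 4047.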

How the data were processed

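Per the file headers, the authors scanned each array with Agilent Feature Extraction 10.5.1.1 and deposited spot intensity values that had been background-subtracted but not scaled between arrays. The deposited table of log2 values, made by the authors from the same signals, was scaled by the median of each array. It holds 15256 probes, KIT among them but not KITLG, and served as an alternative.

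From the spots, log2 of the processed signal was averaged over the unflagged spots of a probe, and the median of the non-control probes of each array was subtracted. Presence of a probe required that 50% or more of its spots be well above background, uniform and unsaturated, and a valid probe was one with presence on 80% or more of the arrays in all 3 stages. The 3 stages, as given by the labels, were fitted together in limma 3.58.1 (R 4.3.3, lmFit and eBayes). The Benjamini-Hochberg adjustment ran over the 13865 valid probes, or over all 21475 probes for genes without a valid one, with a threshold of 0.01. Single genes were also compared by 2-sided exact permutation tests (scipy 1.17.1, threshold 0.05), and the fit was tested on simulated data. Each SD is that between the arrays of a stage, and each SE that of the fitted difference.

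Symbols came through the RefSeq accession of a probe, or else from the array design, and the valid probe with the highest mean signal stands for a gene. Up to 2 genes per direction and list were named by the size of their change among those past the threshold with groups that do not overlap. KIT, KITLG and the gene lists were chosen with earlier results of these data known. Alternative scalings, background corrections, filters, blocks, weights and left-out arrays were tried. Some genes of the lists are not reported here by name.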

Additional observations from a re-analysis of the deposited data

Results flagged for a closer look

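Among 78 sets of arrays of 1 stage and 1 gene, 4 held an array whose gap to its nearest neighbour was large against the range of the set, and chance flags about 1 in 20 such sets. KIT was lowest on NC1 replicate 4, at 1.61 on the log2 scale, where the next NC1 array had 2.76. C2 replicate 2 was highest for ARAF at 7.44 (next 6.59) and lowest for SH2B3 at -1.29 (next 0.54). PDGFC was highest on NC1 replicate 3, at 8.25 (next 7.85).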

How the results depend on the processing

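The rise of KITLG at C2 kept its direction and call in every setting that could be run, at 2.29 to 5.26 over C1 and 1.89 to 4.80 over NC1. The deposited table gave it no value, as it does not hold the probe. KIT passed the threshold in no setting, but the sign of C2 minus C1 turned to 0.023 with the replicate block and to 0.18 with close C2 arrays averaged, an alternative chosen after seeing the data. It lay between -0.50 and 0.25 when single arrays were left out, and the positive values came without C1 replicate 6 (0.06), C2 replicate 1 (0.25) or C2 replicate 5 (0.17). Under normexp the excess of KITLG over KIT from NC1 to C2 was 1.30 and lost its call in the exact permutation test at a threshold of 0.05, and that from NC1 to C1 was -1.14 and passed it. Without single arrays the latter ran from -1.20 to -0.64. The cause was not tested.

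Between NC1 and C1 the 8 probes called became 25 with no filter, 19 with presence in 1 of 3 stages (also chosen after seeing the data), 232 with array weights, 2 with the slide as a fixed block, 2 in the unmoderated test, 0 with the replicate block, and 1 to 19 without single arrays (19 without C2 replicate 2). With normexp 2462 probes were higher and 1199 lower in C2 than in NC1, or 67.2% higher, against 55.3% in the main comparison. Among the single genes and lists, 527 values kept their direction and call, 24 moved and 4 lost their call, leave-one-out settings aside.

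The labels number the replicates alike in each stage, but same-numbered arrays did not deviate together (correlations of -0.32 to 0.25), so the numbers were not taken as pairs. With the replicate block KITLG was 4.90 over C1 and 4.41 over NC1, KIT was 0.54 higher in C2 than in NC1 (adjusted p = 0.350), and limma with the block left 0 calls between NC1 and C1, where 1165 probes had an unadjusted p under 0.05. It changed no other call of KIT or KITLG.

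With 5 or 6 arrays per stage the 95% intervals of KIT span nearly 2 log2 units, and the low signal over background limits any order of KITLG levels within compact cumulus.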
